A study of Mus musculus with 9 samples.

Results

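Epidermis of KH embryos, which had no intact Esrp1 and 1 remaining allele of Esrp2, was compared with epidermis of WT embryos. The members were chosen by genotype label alone and number 4 of the 9 libraries in the series, KH replicates 1 and 2 (Esrp1 KO/Esrp2 Het) and WT replicates 1 and 2 (Esrp1 WT/Esrp2 WT). The other 5 libraries, 3 of KO embryos (Esrp1 KO/Esrp2 WT) and 2 of DKO embryos (Esrp1 KO/Esrp2 KO), shared the estimate of the spread and supplied levels set beside KH. All libraries came from E18.5 mouse embryos of a mixed C57BL6/129Sv strain that had been back-crossed towards C57BL6/6, untreated, with 1 library per embryo, and held poly(A) RNA of the whole epidermis after it was parted from the dermis with trypsin. The Esrp1 null allele arose by Cre recombination in the germ line of Zp3-Cre mice and lacks internal exons, and the Esrp2 null allele carries a LacZ and neomycin cassette in place of the gene. Neither deletion is limited to the epidermis. KH embryos came from a cross in which every pup carried 1 null Esrp2 allele, so no WT embryo was a littermate, and litter and genotype cannot be told apart. The text on RNA extraction lists the controls as lacking Esrp2 while the sample labels call them wild type. Esrp2 stood at 118.1 and 135.8 FPKM in these 2 libraries, and they are called WT here.

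Esrp1 and Esrp2 are RNA-binding proteins of epithelial cells that bind near alternative exons and set whether those exons are kept in the mature transcript. Their best known target is Fgfr2, whose epithelial receptor isoform depends on them, and others encode proteins of cell junctions, the cytoskeleton and polarity. The epidermis is a stratified epithelium in which basal cells divide, spinous cells build desmosomes and keratin bundles, and granular and cornified cells make the cross-linked envelope and lipids of the skin barrier. Near birth this barrier has just formed, and melanocytes, Langerhans cells and dendritic epidermal T cells sit among the keratinocytes.

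The values are FPKM, fragments scaled to transcript length and to the mapped fragments of the library. They keep no read counts, so the count behind a single value is not given and no counting interval was computed. The paper reports mapped read pairs by genotype group, and these were not used here. The FPKM of a library summed to between 713318 (KH replicate 1) and 925443 (KH replicate 2) in the 4 libraries compared. Of 38203 genes in the table, 12442 had a mean FPKM of at least 1 in KH or in WT and were tested on log2(FPKM + 1), a scale that understates differences of low genes. Keratinocyte genes dominated, with Krt5 between 1676.2 and 3457.3 FPKM and Krt10 between 14575.2 and 32065.8 FPKM, as the tissue label gives. Of the markers of other tissues, 8 of 10 endothelial, 10 of 12 muscle and 7 of 12 dermal fibroblast genes stayed under 1 FPKM in all 4 libraries, among them the defining Pecam1, Cdh5, Acta1, Myh3 and Col1a1. Others were expressed, such as the fibroblast genes Dcn (48.9 to 134.6 FPKM) and Postn (176.0 to 325.6 FPKM). Cd207, the defining gene of Langerhans cells, was listed at 0 in each. Sex was not balanced. Xist, which is transcribed from the inactive X chromosome, was at most 0.160 FPKM in both KH libraries and in WT replicate 1, and 110.9 FPKM in WT replicate 2. In bulk tissue, fewer cells of a type and less RNA per cell cannot be told apart.

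The 2 KH libraries stood further from each other than any other pair of the same genotype. Between them, 1485 of the 12442 genes (11.9%) were more than 2-fold apart on the log2(FPKM + 1) scale, against 157 (1.26%) between the 2 WT libraries, 424 between the 2 DKO libraries and 548 to 772 for the 3 pairs of KO libraries. The median absolute log2 difference was 0.39 in KH and 0.18 in WT. Across genes, which are not independent replicates, Pearson's r was 0.940 for the KH pair and 0.983 for the WT pair. KH replicate 1 resembled KO replicate 1 most (0.984), and KH replicate 2 resembled WT replicate 1 most (0.977). Small RNA genes, which are poorly measured in poly(A) libraries, were most affected, with 52 of 75 over 2-fold apart, but protein-coding genes were also apart in 1250 of 11328 cases (11%).

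**Figure D1:**
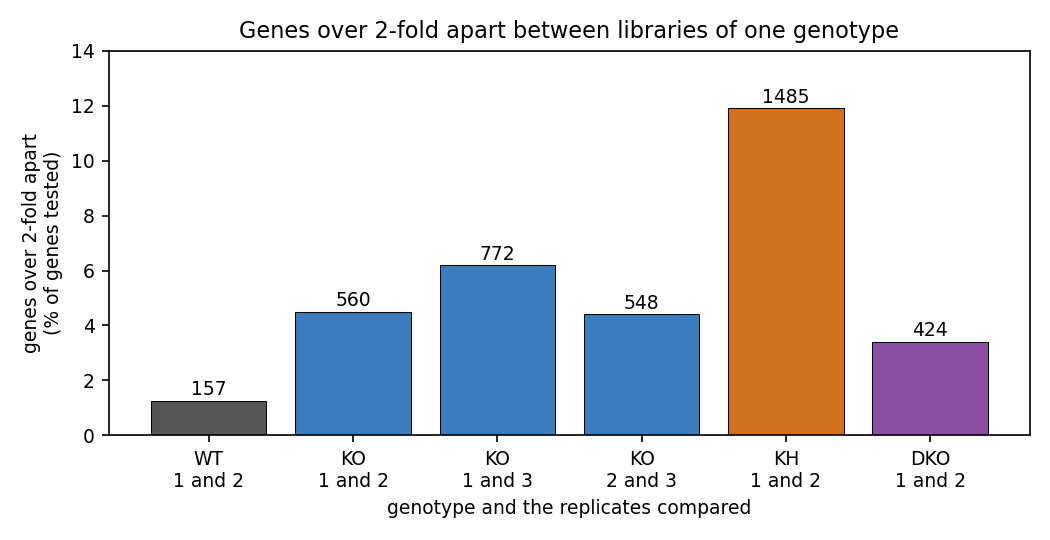
Bars give the percentage of the 12442 tested genes that were more than 2-fold apart on log2(FPKM + 1) for each pair of libraries of the same genotype, with the number of genes above each bar. The KH pair has 1485 such genes and the WT pair 157, with the KO and DKO pairs between them.

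The alleles that define KH embryos were typed with the primers shown here because they mark what is deleted and what remains. Primers are printed 5′ to 3′ in lower case.
Esrp1 knockout allele, forward: tgctcacattccctgtgtgggtta
Esrp1 knockout allele, reverse: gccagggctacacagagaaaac
Esrp2, forward: cgcgggcgggtctctgc
Esrp2 wild-type allele, reverse: ctcccctccccctcgaagtagtgt
The Esrp2 forward primer matches chr8:106136907-106136923 in exon 1 of the gene (GRCm38, minus strand), and the wild-type reverse primer matches chr8:106136286-106136309, in an exon of a short Esrp2 transcript. Both Esrp1 primers have no match in annotated Esrp1 transcripts, and their place in the genome was not analysed here.

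Both targeted genes were lower in KH than in WT, and unevenly so between the KH embryos. Esrp1 (ENSMUSG00000040728, chr4:11331933-11386783 of GRCm38, minus strand) had 18.2 FPKM in KH replicate 1 and 55.1 in KH replicate 2, against 119.0 and 141.9 in WT. The KH mean of 36.6 ± 26.1 FPKM (SD, n = 2) was 28.1% of the WT mean of 130.5 ± 16.2 (SD, n = 2). FPKM is summed over the whole gene, so the shortened transcript of the null allele is still counted and a level of 0 is not the measure of a knockout. The log2 difference was -2.00 (SE 0.41, adjusted p = 0.683 by limma with Benjamini-Hochberg adjustment), and it passed the threshold only with KH replicate 2 left out (-2.77, adjusted p = 0.0167). With KH replicate 1 left out it was -1.22 (adjusted p = 0.283). Esrp1 in KH replicate 2 also exceeded the level in each KO library (27.1 to 29.8 FPKM) and each DKO library (38.7 and 42.2 FPKM).

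Esrp2 (ENSMUSG00000084128, chr8:106130319-106136974, minus strand) had 38.6 and 89.5 FPKM in KH, 118.1 and 135.8 in WT, 88.1, 88.4 and 131.1 in KO, and at most 0.0843 in DKO. The KH mean of 64.0 ± 36.0 FPKM (SD, n = 2) was 50.4% of WT, with 1 of 2 alleles present, but the individual KH libraries lay on both sides of that share. KH replicate 2 overlapped the KO libraries, in which both Esrp2 alleles are intact, and KH replicate 1 lay below all of them. The log2 difference from WT was -1.09 (SE 0.37, unadjusted p = 0.0161, adjusted p = 1 by limma with Benjamini-Hochberg adjustment). It was -0.50 (unadjusted p = 0.135) with KH replicate 1 left out and -1.69 (unadjusted p = 0.000501) with KH replicate 2 left out. Within the KH pair, both targeted genes were lower in KH replicate 1.

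**Figure D2:**
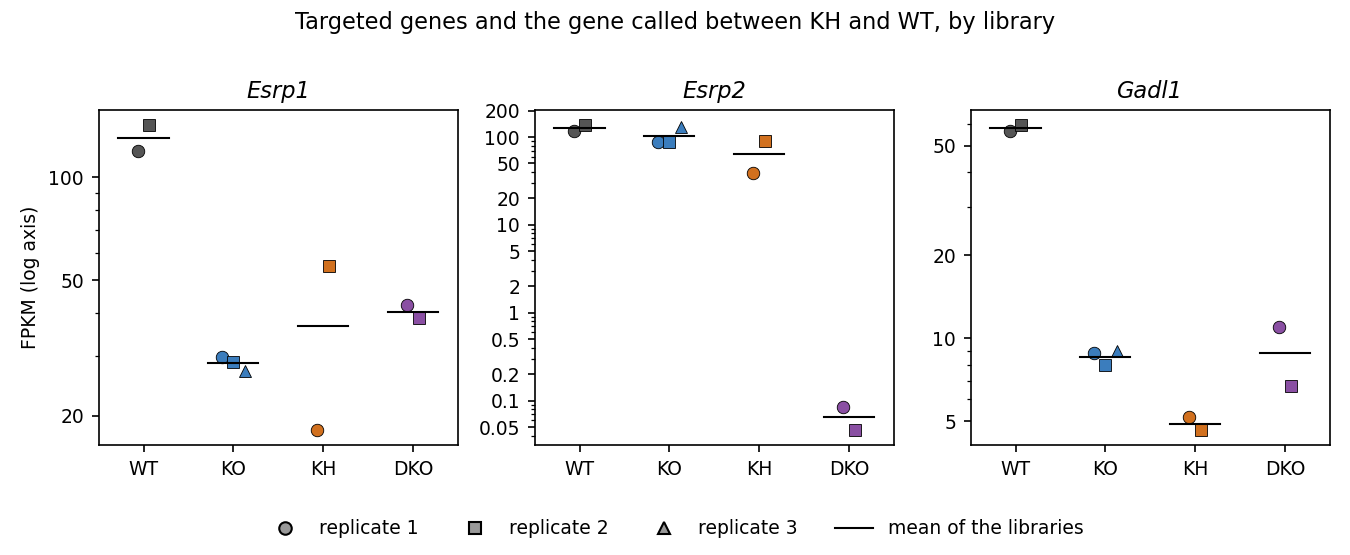
FPKM on a log axis of Esrp1, Esrp2 and Gadl1 in each library of WT, KO, KH and DKO, with symbols for single libraries and a horizontal line for the mean of a genotype. The KH libraries are far apart for Esrp1 (18.2 and 55.1) and Esrp2 (38.6 and 89.5) and close together for Gadl1 (5.16 and 4.65), which is 56.6 and 59.2 in WT.

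A single gene, Gadl1, passed the threshold between KH and WT. Gadl1 (ENSMUSG00000056880) encodes a decarboxylase that uses pyridoxal phosphate and makes beta-alanine and related compounds. It fell from 56.6 and 59.2 FPKM in WT to 5.16 and 4.65 FPKM in KH. The means of 57.9 ± 1.79 (SD, n = 2) and 4.90 ± 0.360 (SD, n = 2) differed 11.8-fold, far beyond the spread within either pair. The log2 difference was -3.32 (SE 0.23, adjusted p = 0.00198 by limma with Benjamini-Hochberg adjustment). In KO the 3 libraries had 8.81, 7.97 and 8.97 FPKM, and in DKO 11.0 and 6.69 FPKM, so every library without intact Esrp1 lay below both WT libraries, whatever its number of Esrp2 alleles. A pseudogene, Gm9385, lies inside Gadl1 on the opposite strand. The libraries were stranded, but whether the counting used strand is not given in the sources used here. Gadl1 was past the threshold in every alternative tried, with a log2 difference between -3.54 and -3.24.

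The 250 bases before the annotated start of Gadl1, from the RefSeq table for GRCm38.p6, are shown because it is the only gene called. They run along the plus strand at chr9:115909205-115909454, before the gene at chr9:115909455-116076176.
Gadl1 upstream: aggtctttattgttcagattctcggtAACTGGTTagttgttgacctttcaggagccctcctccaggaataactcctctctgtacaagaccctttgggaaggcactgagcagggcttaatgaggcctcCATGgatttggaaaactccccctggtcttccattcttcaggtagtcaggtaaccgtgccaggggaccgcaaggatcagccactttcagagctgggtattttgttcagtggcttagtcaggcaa
Capitals mark matches on either strand to the letters AACCNGTT, bound by Grainyhead-like factors, 224 bases before the start, and to CATG, the core of the p63 site, 123 bases before it. The first is found in 1.79% of 32851 windows of this length and the second in 53.9%. Searches on both strands for the TATA box (TATAAA, in 12.4% of windows), the CCAAT box (CCAAT, 33.8%), the GC box (GGGCGG, 32.7%), the AP-1 site (TGANTCA, 6.75%), the E-box (CACGTG, 6.02%) and the GATA site (AGATAA, 9.99%) found no match. A match is a description of letters and shows no binding.

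The call on Gadl1 made up 0.00804% of the genes tested, with 0 genes higher. At an unadjusted p below 0.05, limma gave 401 genes (3.22%), of which 140 (1.13%) were higher and 261 (2.1%) lower in KH. The count of calls depended on single libraries. Leaving out KH replicate 1 gave 11 calls and leaving out KH replicate 2 gave 4. Dropping WT replicate 1, the WT library with Y chromosome transcripts, gave 8 calls, of which 5 were Xist, Ddx3y, Eif2s3y, Kdm5d and Uty. Dropping WT replicate 2 gave 7, which were Gadl1 and 6 small RNA genes, and dropping KO replicate 1 or either DKO library gave 3 and 2. In 3954 genes (31.8%) both KH libraries lay on the same side of both WT libraries, above in 1633 (13.1%) and below in 2321 (18.7%). The mean FPKM was over 2-fold higher in KH in 319 genes (2.56%) and over 2-fold lower in 177 (1.42%). With 2 libraries a group an exact two-sided permutation test of a single gene cannot give a p below 0.333.

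Beside Gadl1, the widest gaps below WT, counted between the nearest KH and WT libraries, were in 5 protein-coding genes, a small nucleolar RNA and 3 predicted genes. Bsnd, which encodes barttin, a subunit of chloride channels, had 0.149 and 0.569 FPKM in KH and 4.25 and 4.57 in WT (log2 difference -2.01, SE 0.24, adjusted p = 0.0886 by limma with Benjamini-Hochberg adjustment). It stayed under 1 FPKM in all KO and DKO libraries too, and passed the filter through WT alone. Bsnd passed the threshold under 5 alternatives, among them quantile normalization (adjusted p = 0.0214) and the fit without KH replicate 2 (0.0381). Serpinb3a, an inhibitor of serine and cysteine proteases, had 93.2 and 114.3 FPKM against 365.1 and 454.1. Gsdmc, a gasdermin, had 28.5 and 46.8 against 142.6 and 196.7. Their KH means were 25.3% and 22.2% of WT, and the groups did not overlap. Fkbp5, a co-chaperone of steroid receptors that glucocorticoids induce, had 23.0 and 22.9 FPKM against 71.2 and 74.2. Its log2 difference was -1.62 (SE 0.31), and the KH libraries were nearly identical despite their distance elsewhere. Ear5, of the eosinophil-associated ribonucleases, had 3.21 and 5.96 FPKM against 21.4 and 19.9. Serpinb3a, Gsdmc, Fkbp5 and Ear5 also lay below both WT libraries in every KO and DKO library. Serpinb3a, for example, had 99.4 to 179.0 FPKM in KO and 130.4 and 75.6 in DKO. SNORA70, a small nucleolar RNA, was listed at 0 in both KH libraries and at 5.67 and 7.55 in WT, but also at 0 in DKO replicate 2 and the 3 KO libraries. It passed the filter of 1 FPKM through WT alone, which favours a lower value in KH. With DKO replicate 1 or DKO replicate 2 left out, the log2 difference stayed at -2.92. The SE fell from 0.81 to 0.24 and 0.23, since the DKO libraries (8.95 and 0 FPKM) held its widest spread within a genotype. These fits are therefore no separate support for a difference.

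Above WT, the widest gaps belonged to processed pseudogenes. Rps13-ps1 had 192.1 and 256.5 FPKM in KH and 0.0959 and 0.0576 in WT, and Rps15a-ps8 had 15.8 and 18.6 against a listing of 0 in both. Processed pseudogenes are near copies of a parent gene, so the assignment of their reads is uncertain. The parent Rps15a had 2213.6 to 2762.8 FPKM in these libraries, whereas Rps13 was under 1 FPKM in all 4. They were also high in KO replicate 1 (542.6 and 39.9 FPKM) and at or near 0 in the 4 other KO and DKO libraries. Both pseudogenes passed the filter of 1 FPKM through KH alone, which favours a higher value in KH. By limma with Benjamini-Hochberg adjustment, each passed the threshold when KO replicate 1 was left out (adjusted p = 1.16e-05 for Rps13-ps1 and 0.000207 for Rps15a-ps8). That library held most of their spread within genotypes, and without it the SE of Rps13-ps1 fell from 2.40 to 0.25. These passes are therefore no separate support for a difference between KH and WT. The small nucleolar RNAs SNORA63 (31.0 and 4.63 FPKM) and SNORA48 (4.08 and 5.67 FPKM) were listed at 0 in WT. Gm13392 was the remaining pseudogene.

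The other 5 were protein-coding genes with means 2.18-fold to 4.33-fold higher in KH. Tmem160, a membrane protein, had 19.2 and 26.2 FPKM in KH against 7.27 and 6.04 in WT (log2 difference 1.62, SE 0.34, adjusted p = 0.73 by limma with Benjamini-Hochberg adjustment). Aim2, a sensor of DNA in the cytosol, had 6.89 and 10.9 against 2.63 and 2.06. Uap1l1, related to a pyrophosphorylase that makes UDP-N-acetylglucosamine, had 6.26 and 5.53 against 2.27 and 1.77. Each of these was above WT in both KH libraries, without passing the threshold. For these, and for Alad and Fabp4 described next, every KO and DKO library also lay above both WT libraries. Tmem160, for example, had 22.8 to 40.7 FPKM in KO and 45.1 and 26.9 in DKO. Alad, an enzyme of heme synthesis, had 30.8 and 36.1 FPKM against 14.8 and 15.9, a ratio of means of 2.18. Fabp4, the fatty acid binding protein of fat cells and macrophages, had 44.0 and 62.0 against 6.66 and 17.8. The other 9 genes of the adipocyte list were under 1 FPKM in all 4 libraries, and the defining markers Adipoq and Plin1 were listed at 0 in both KH libraries.

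**Figure D3:**
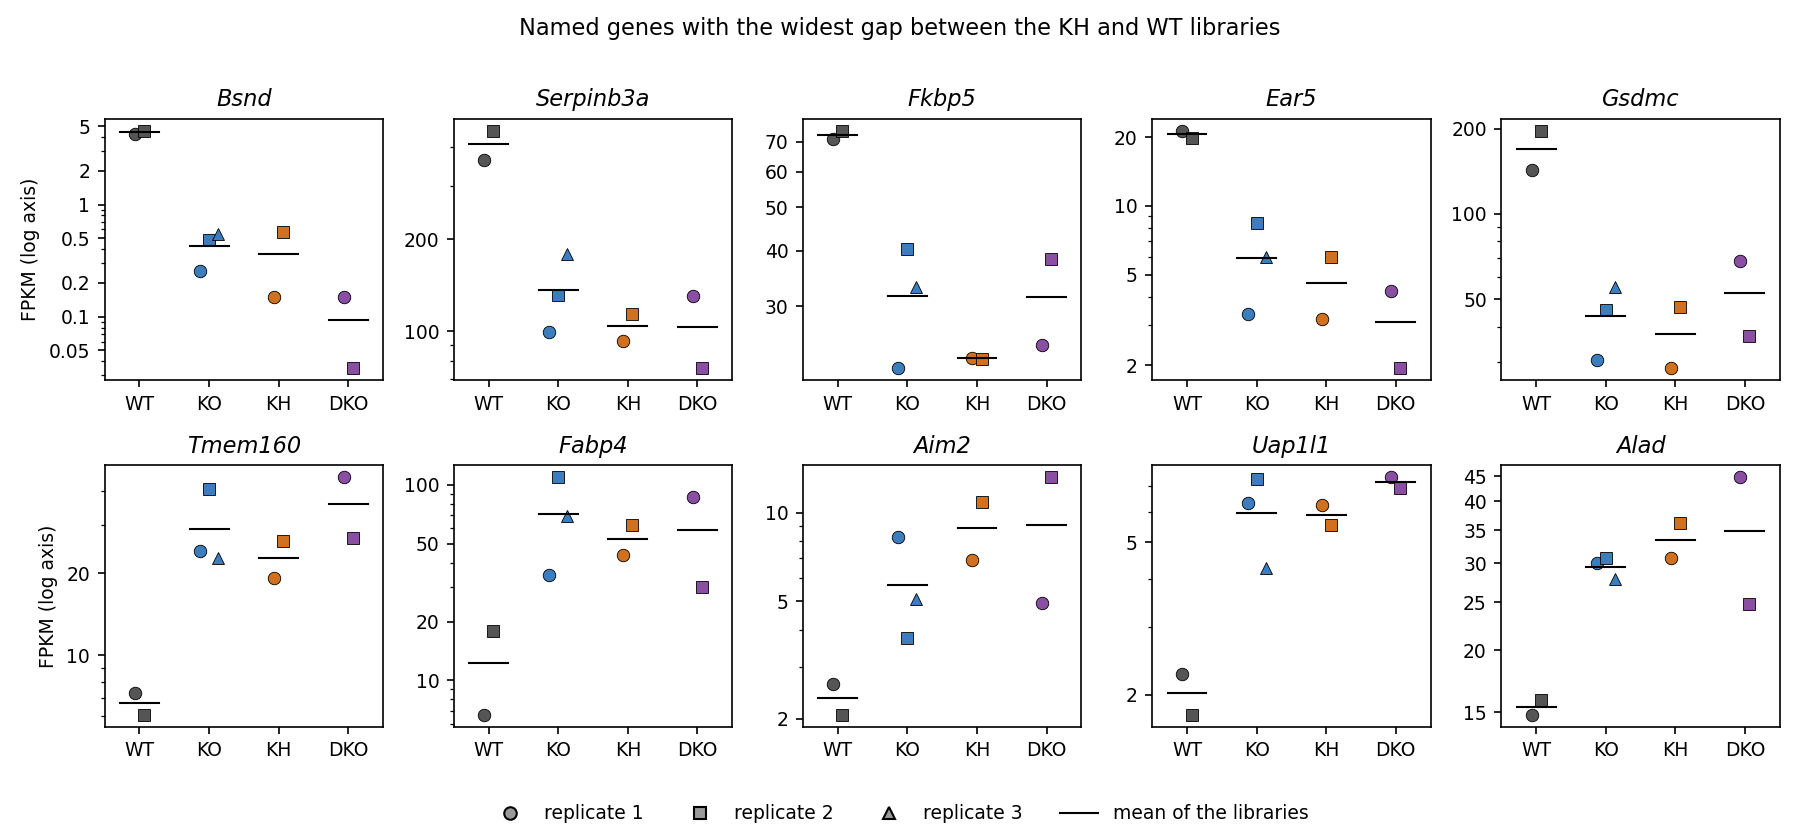
FPKM on a log axis in each of the 9 libraries for the protein-coding genes, other than Gadl1, among the 10 widest gaps in each direction, 5 below WT and 5 above, with a horizontal line for the mean of a genotype. In the top row both KH libraries lie below both WT libraries and in the bottom row above them, and none of these genes passed the threshold.

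The genes that parted the 2 KH embryos were then described. Of the 1485 genes over 2-fold apart, 1122 (9.02% of all tested) were higher in KH replicate 2 and 363 (2.92%) in KH replicate 1. This split of 75.6% to the side of replicate 2 depended on scaling, since it became 33.7% of 1885 genes after rescaling to TPM, 62.5% of 1512 after quantile normalization and 67.5% of 1395 after a length correction. Rescaling to TPM moved the median difference between the KH libraries over all genes from 0.03 to -0.30. In 1042 of the 1485 genes, 1 KH library was above and the other below both WT libraries. A wide gap between the KH libraries, by which these genes were chosen, favours this position. Over all 12442 genes, KH replicate 1 was above and KH replicate 2 below both WT libraries in 1806 (14.5%). The reverse held in 2214 (17.8%). KH replicate 1 was the library further from the WT mean in 1019 of the 1485 and KH replicate 2 in 466.

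**Figure D4:**
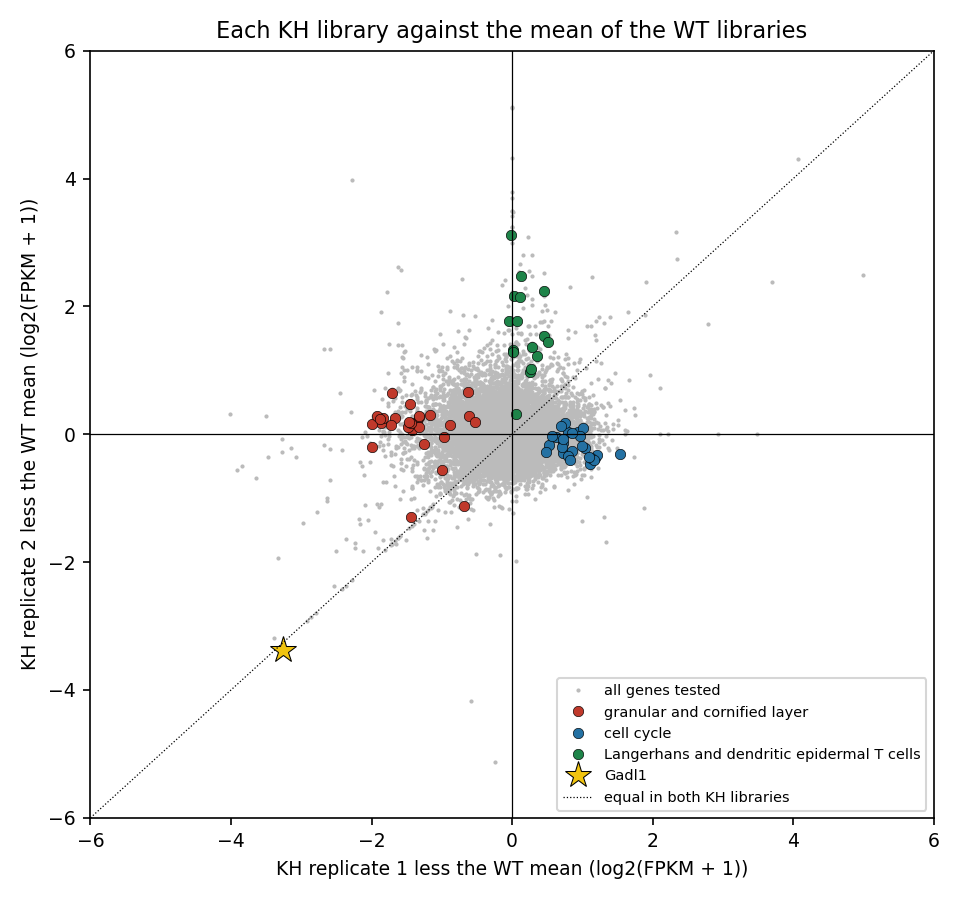
Difference of KH replicate 1 (horizontal) and KH replicate 2 (vertical) from the WT mean on log2(FPKM + 1), 1 point per tested gene, with 3 gene lists coloured and Gadl1 as a star. Granular and cornified genes lie left of 0 and mostly near 0 on the vertical axis, cell cycle genes lie to the right, and Gadl1 lies near the dotted line of equal difference. Rps13-ps1 is outside the axes.

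Genes of the granular and cornified layer were split widely. Of 28 tested, 22 were over 2-fold apart, all higher in KH replicate 2, and the median difference was 1.59 on the log2 scale (1.22 after TPM rescaling, 1.20 after quantile normalization). Lor, the main protein of the cornified envelope, had 1972.8 FPKM in KH replicate 1 and 5996.5 in KH replicate 2, with 5511.5 and 4397.8 in WT. Flg, which bundles keratin and yields the natural moisturizers of skin, had 1005.2 and 3814.8 against 3322.9 and 2262.8. KH replicate 1 was thus below both WT libraries for these genes and KH replicate 2 above both. The median of the list was -1.43 from WT in KH replicate 1 and 0.19 in KH replicate 2.

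Basal and dividing cells gave the mirror image. All 14 basal keratinocyte genes were higher in KH replicate 1 than in KH replicate 2, under each of the 4 scalings tried, with a median log2 difference of -0.73 between the 2 libraries (replicate 2 less replicate 1). Krt5 had 3457.3 and 1676.2 FPKM in KH, and 2309.0 and 2343.3 in WT. All 27 cell cycle genes were likewise higher in KH replicate 1, 14 of them over 2-fold, and none of the 27 separated KH from WT. Ccnd1, which drives entry into the cycle, had 36.2 and 9.36 FPKM in KH and 11.7 and 11.9 in WT. The list lay a median of 0.85 above WT in KH replicate 1 and -0.20 from WT in KH replicate 2. Of 13 hair follicle genes, 9 were higher in KH replicate 1, 7 of them over 2-fold, and 4 were higher in KH replicate 2. An example of the former is Lhx2, a follicle stem cell factor (18.0 and 3.43 FPKM in KH, 5.71 and 3.79 in WT). Spinous genes, between these layers, were split less widely. Of the 12, 2 were over 2-fold apart, and the median difference of 0.46 between the KH libraries became 0.08 after TPM rescaling and -0.09 after quantile normalization. Less the median over all genes, these 3 values were 0.43, 0.39 and -0.02, so the direction held after TPM rescaling but not after quantile normalization.

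Resident cells of other types divided between the embryos as well. The 11 melanocyte genes tested were all higher in KH replicate 1. The whole melanocyte list summed to 180.8 FPKM there, 73.3 in KH replicate 2, and 61.6 and 55.0 in WT. The 16 Langerhans and T cell genes were all higher in KH replicate 2 (15 of 16 after TPM rescaling), and this list summed to 117.5 and 339.0 FPKM in KH and 131.5 and 81.4 in WT. Cd3g, a chain of the T cell receptor complex, had 2.11 and 26.1 FPKM in KH and 3.08 and 1.41 in WT. Red blood cell genes summed to 15.4 and 171.9 FPKM in KH and 624.1 and 93.0 in WT, so this sum varied within both genotypes. The part of these cell types in the comparison of KH with WT was not tested. Among the 10 genes furthest apart between the KH embryos, 2 were neither small RNAs nor predicted genes. Malat1, a nuclear noncoding RNA, had 25.1 and 463.4 FPKM, and Cyp2b19, a cytochrome of upper keratinocytes, had 54.5 and 895.7 FPKM.

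**Figure D5:**
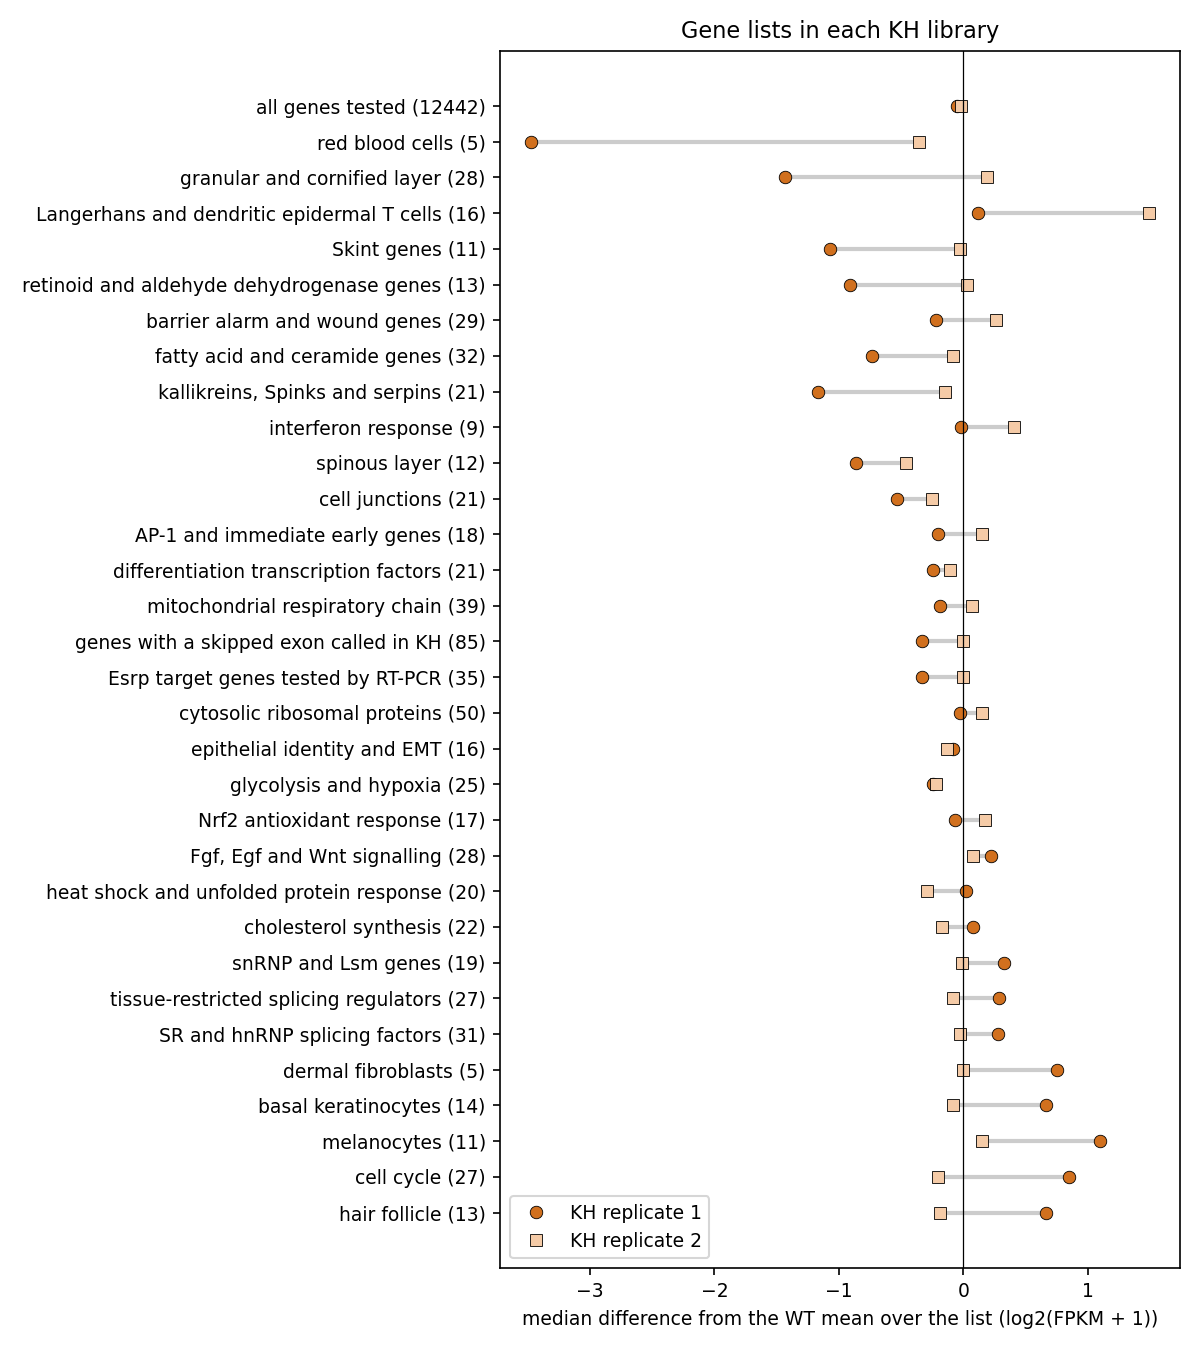
Median log2(FPKM + 1) difference from the WT mean for each gene list with at least 5 tested genes (number in brackets), with circles for KH replicate 1 and squares for KH replicate 2. Granular and cornified genes are at -1.43 and 0.19, cell cycle genes at 0.85 and -0.20, and the Langerhans and T cell genes at 0.12 and 1.49.

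The comparison of KH with WT was then read by gene group, from the basal layer upward, with the count of non-overlapping genes set against the 13.1% higher and 18.7% lower of all genes and a median over all genes of -0.03 (0.07 after TPM rescaling). Apart from Gadl1, which is in none of the 35 lists, limma called no gene, so every list had 0 calls. Basal keratinocyte genes had 5 of 14 members above both WT libraries and 1 below. Their median log2 difference of 0.36 rested on KH replicate 1 (0.66, against -0.08 in KH replicate 2). Col17a1, a collagen of hemidesmosomes, had 111.1 and 79.5 FPKM in KH and 64.5 and 73.1 in WT. The member below WT was Krt15, a basal keratin, with 588.1 and 483.8 FPKM against 990.3 and 1109.5 (log2 difference -0.97, SE 0.38, unadjusted p = 0.0293). It was below WT in both KH libraries although Krt5 was not.

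In the spinous layer 6 of 12 genes lay below both WT libraries and none above. The median was -0.64 for the average of the KH libraries, -0.86 in KH replicate 1 and -0.46 in KH replicate 2. After quantile normalization the median for the average was -0.37. The 6 genes were Dsg1a, Dsg1b, Dsc1, Dsp, Jup and Krt10. Krt1, the partner keratin of Krt10, overlapped WT (12737.4 and 20036.3 FPKM in KH, 19914.5 and 27455.2 in WT). Dsg1a, a desmosomal cadherin, had 189.2 and 169.8 FPKM in KH and 293.9 and 426.2 in WT. Dsg1b had 30.7 and 30.0 against 50.7 and 121.9, and Dsc1 had 124.1 and 127.2 against 190.2 and 388.5. Here the KH libraries were close together and the WT libraries apart. Dsg1a and Dsg1b were the 2 members with an unadjusted p below 0.05 (0.0451 and 0.0406). Dsp, which ties the desmosome to keratin, had 391.1 and 345.1 FPKM against 491.6 and 762.0.

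Cell junction genes pointed the same way, with 12 of 21 (57.1%) below both WT libraries, none above and a median of -0.47 (-0.53 in KH replicate 1 and -0.25 in KH replicate 2). Gjb2, a connexin of gap junctions, had 40.3 and 52.0 FPKM in KH and 79.7 and 87.0 in WT (log2 difference -0.85, SE 0.30, unadjusted p = 0.0191). Gja1, the most abundant connexin in this list, had 314.9 and 261.7 against 391.6 and 488.7. The groups did not overlap for either connexin, nor for Gjb5 (44.2 and 95.1 against 119.6 and 129.2). Genes of epithelial identity and transition showed smaller differences, with 4 of 16 below and 2 above. Cdh1, the E-cadherin of adherens junctions, had 118.3 and 118.5 FPKM in KH and 145.0 and 144.1 in WT, a log2 difference of -0.29. Vim, an intermediate filament of mesenchymal and resident non-epithelial cells, had 55.8 and 56.4 against 40.6 and 27.9 (unadjusted p = 0.0388).

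Of the 28 granular and cornified genes, 6 (21.4%) lay below both WT libraries, near the share over all genes, and the median of -0.66 combined the low KH replicate 1 with KH replicate 2 near WT. The 3 members with an unadjusted p below 0.05 were low in both KH libraries. Tgm3, a transglutaminase that cross-links the envelope, had 31.5 and 34.8 FPKM in KH and 77.5 and 98.4 in WT (log2 difference -1.37, SE 0.32, unadjusted p = 0.0019). Tgm5, another transglutaminase, had a log2 difference of -0.78 (SE 0.26, unadjusted p = 0.0161). Rptn, a fused S100 protein of the envelope, had 8.31 and 5.92 against 13.4 and 14.8. The 2 transglutaminases and Rptn therefore differed from Lor and Flg, for which KH replicate 2 was above WT. Differentiation transcription factors had 8 of 21 below both WT libraries (38.1%) and 2 above, with none at an unadjusted p below 0.05. Zfp750, a factor of terminal differentiation, had 59.6 and 82.9 FPKM against 92.4 and 112.9, and Cebpa had 79.9 and 109.5 against 146.3 and 129.7.

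Of 21 proteases and their inhibitors in the cornified layer, 5 had an unadjusted p below 0.05, all lower in KH. In all, 10 of the 21 lay below both WT libraries (47.6%) and 1 above. The median was -1.17 in KH replicate 1 and -0.15 in KH replicate 2, and 8 genes were over 2-fold apart between them, all higher in replicate 2. Serpinb6c had 12.7 and 11.4 FPKM in KH and 33.9 and 42.4 in WT (log2 difference -1.58, SE 0.44, unadjusted p = 0.00553). Tmprss11e, a membrane serine protease, had 0.0908 and 0.324 against 1.29 and 1.41, and it passed the filter of 1 FPKM through WT alone, which favours a lower value in KH. Serpinb3b had 85.7 and 127.3 against 183.9 and 204.3, and Serpinb2 had 66.0 and 69.6 against 115.9 and 156.6. The fifth was Serpinb3a, described above. The member above both WT libraries was Serpinb1a, also a serpin, with 2.62 and 1.95 against 1.36 and 1.64. Members of the serpin family lie next to each other on chromosome 1 or 13 and are alike in sequence, so reads may be split among them. The predicted gene Gm8080, among the 10 widest gaps below WT, lies in the same stretch of chromosome 1 (chr1:107020137-107025325) as Serpinb3a (chr1:107045587-107052303).

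Lipid and metabolic genes of the barrier had 13 of 32 fatty acid and ceramide genes below both WT libraries (40.6%) and 4 above, with a median of -0.73 in KH replicate 1 and -0.08 in KH replicate 2. Elovl5, an elongase of polyunsaturated fatty acids, had 5.72 and 6.13 FPKM in KH and 11.7 and 12 in WT (log2 difference -0.89, SE 0.18, unadjusted p = 0.000665). Degs2, which makes the phytoceramides of skin, had 1.01 and 5.02 against 13 and 16.5. Alox12e, an epidermal lipoxygenase, went the other way with 17.6 and 76.5 against 13.9 and 11.3. Elovl5 was steady within each pair, whereas Degs2 and Alox12e were more than 2-fold apart between the KH embryos. Retinoid and aldehyde dehydrogenase genes had 5 of 13 below and none above, with a median of -0.91 in KH replicate 1 and 0.03 in KH replicate 2. Among the 5 was Rdh1, a retinol dehydrogenase (10.1 and 16.3 FPKM against 22.4 and 23.3). Among glycolysis and hypoxia genes, 5 of 25 lay below and 2 above. Hk2, the hexokinase of growing cells, had 75.9 and 95.1 FPKM against 43.5 and 47.9 (unadjusted p = 0.0271), while Adm, the peptide adrenomedullin, had 1.31 and 3.21 against 6.02 and 6.76 (unadjusted p = 0.00547).

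Cholesterol synthesis genes had 4 of 22 below both WT libraries and 2 above, and mitochondrial respiratory chain genes had 2 of 39 below and 4 above, both at or under the shares over all genes. Cytosolic ribosomal protein genes had 5 of 50 below and 11 above with a median of 0.06 (0.18 after TPM rescaling). Heat shock and unfolded protein genes had 5 of 20 below and 1 above, Nrf2 antioxidant genes 3 of 17 on each side, interferon response genes none of 9 below and 3 above, and immediate early genes 2 of 18 on each side. Egr1, an immediate early factor, had 18.1 and 20.1 FPKM in KH and 10.6 and 9.9 in WT (unadjusted p = 0.0478). It was the only member of these 7 lists above both WT libraries at an unadjusted p below 0.05.

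Barrier alarm and wound genes, which keratinocytes switch on when the barrier is damaged, showed no common direction. Of 29 tested, 5 lay above both WT libraries and 3 below. The median was -0.07 for the average of the KH libraries, -0.22 in KH replicate 1 and 0.26 in KH replicate 2. After TPM rescaling the median for the average was 0.04, with 19 genes higher in KH replicate 2 and 10 in KH replicate 1. Krt12, a keratin of the cornea, had 44.7 and 112.6 FPKM in KH and 24.5 and 15.8 in WT (log2 difference 1.80, SE 0.49, unadjusted p = 0.00525). S100a6, a calcium-binding protein, had 36.3 and 48.3 against 23.2 and 18.1. Sprr2a1, a small proline-rich envelope protein, had 2.85 and 10.9 against 23.4 and 22.3. Serpinb3a counts in this list too, below WT.

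The KH embryos were set beside DKO for a list of 12 genes re-measured by real-time RT-PCR. The list was chosen on these samples and is no independent evidence of direction. Krt12 was the member furthest above WT in KH, yet its DKO libraries had 994.3 and 1040.4 FPKM. Krt6b, a keratin of wounded epidermis, had 4.83 and 6.39 FPKM in KH, 6.87 and 12.2 in WT, and 710.2 and 1592.8 in DKO. Rptn, below WT in KH, had 320.7 and 287.8 in DKO. KH and DKO thus lay on opposite sides of WT for Krt6b and Rptn. Sprr2g, Sprr2b, Sprr2e, S100a9, Krt2 and Crnn were between 0.918 and 6.33 FPKM in KH and between 0.498 and 4.21 in WT, with log2 differences between -0.16 and 0.77. None of these 6 had an unadjusted p below 0.05 between KH and WT. Krt77, a keratin of sweat ducts and embryonic epidermis, had 65.8 and 121.7 FPKM in KH, 59.9 and 81.8 in WT, and 22.6 and 5.36 in DKO. Skint4 had 6.89 and 9.63 FPKM in KH, 15.6 and 26.6 in WT, and 4.16 and 2.23 in DKO. Grhl1, a transcription factor of the barrier, had 62.4 and 107.2 FPKM in KH, 131.5 and 118.1 in WT, and 43.0 and 41.6 in DKO. For Grhl1 and Skint4 both KH libraries were below both WT libraries, as the DKO libraries were. For Skint4 the difference of KH from WT was -1.22 (SE 0.43, unadjusted p = 0.0183), the member furthest below WT.

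Skint genes encode membrane proteins of keratinocytes, one of which selects the dendritic epidermal T cells in the thymus. Of the 11, 5 lay below both WT libraries and none above, and the median of -0.57 was -1.07 in KH replicate 1 and -0.03 in KH replicate 2. All 11 were higher in KH replicate 2 than in KH replicate 1, as were the Langerhans and T cell genes. Skint5 had 4.83 and 12.9 FPKM in KH and 15.6 and 21.6 in WT. These genes are near copies of each other, so their reads may be shared. Of the 16 Langerhans and T cell genes, 5 lay above both WT libraries and none below, and the median of 0.89 was 0.12 in KH replicate 1 and 1.49 in KH replicate 2. Thy1, a surface protein of dendritic epidermal T cells, had 7.95 and 16.0 FPKM against 5.97 and 4.67 (unadjusted p = 0.0382). Among melanocyte genes 8 of 11 lay above both WT libraries and none below, and the median of 0.69 was 1.10 in KH replicate 1 and 0.15 in KH replicate 2. Mlana, a melanosome protein, had 15.3 and 9.76 against 5.94 and 4.44, and Trpm1, an ion channel of melanocytes, had 9.01 and 6.77 against 5.11 and 3.88. Postn, a matrix protein of fibroblasts, had 325.6 and 320.9 FPKM in KH and 176.0 and 211.5 in WT (log2 difference 0.74, SE 0.24, unadjusted p = 0.012). Of the 5 dermal fibroblast genes tested, 2 lay above both WT libraries and none below, and all 5 were higher in KH replicate 1 than in KH replicate 2. Dcn, a proteoglycan of the same list, had 134.6 and 48.9 FPKM in KH and 72.6 and 84.0 in WT. In the hair follicle list 2 of 13 lay on each side. Tchh, a structural protein of the inner root sheath, had 2.41 and 2.72 FPKM against 6.73 and 20.1 (unadjusted p = 0.00649).

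Splicing factors were read as further lists. None of 31 SR and hnRNP splicing factors lay below both WT libraries, 7 (22.6%) lay above, and none had an unadjusted p below 0.05. Srsf2 had 209.7 and 207.0 FPKM in KH and 175.2 and 167.5 in WT. Among 27 tissue-restricted splicing regulators 7 lay above and 3 below, and the 2 with an unadjusted p below 0.05 were Pcbp3 (3.30 and 2.08 against 1.24 and 0.946 FPKM) and Pcbp4 (11.0 and 8.24 against 5.77 and 4.90), both poly(C)-binding proteins. Neither factor overlapped WT. Of 19 genes of small nuclear ribonucleoproteins, 3 lay above and none below.

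The 35 Esrp target genes whose exons the study tested by RT-PCR had 10 members (28.6%) below both WT libraries and 4 (11.4%) above, with a median of -0.12 (-0.33 in KH replicate 1 and 0.00 in KH replicate 2) and none at an unadjusted p below 0.05. Whole-gene FPKM does not separate their isoforms. Fgfr2 had 95.4 and 68.1 FPKM in KH and 55.6 and 53.6 in WT, above WT in both libraries. Golga2, a protein of the Golgi matrix, had 20.8 and 31.8 against 37.7 and 44.1, and Cd44, a hyaluronan receptor, had 31.3 and 33.4 against 41.5 and 42.6. The 85 genes in which the study called a skipped exon in KH, a list chosen on these samples, had 24 members below both WT libraries (28.2%), 5 above (5.88%) and a median of -0.14, which was -0.33 in KH replicate 1 and near 0 in KH replicate 2. After TPM rescaling the medians of these 2 lists were both -0.02, with a median over all genes of 0.07. Less the median over all genes, they were -0.10 and -0.11 before rescaling and both -0.09 after it. The 3 members of the skipped-exon list with an unadjusted p below 0.05 were Esrp1, Psap and H60c. H60c, a skin ligand of the activating receptor of T and natural killer cells, had 31.6 and 33.8 FPKM in KH and 89.1 and 129.1 in WT (log2 difference -1.69, SE 0.34, unadjusted p = 0.000751). Psap, a precursor of lysosomal activators, had 190.0 and 197.0 against 289.6 and 277.7. Among Fgf, Egf and Wnt signalling genes 8 of 28 lay above and 3 below, with Spry2, an inhibitor that Fgf signalling induces, at 8.60 and 4.38 FPKM against 3.42 and 3.69.

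KH was last set against KO, which differs from it by 1 allele of Esrp2. No gene was called by limma (0%), and 49 of 12442 (0.394%) had an unadjusted p below 0.05. The difference for Esrp2 itself was -0.76 on the log2 scale (SE 0.34, unadjusted p = 0.0498). Gadl1 was lower in both KH libraries than in all 3 KO libraries, with a log2 difference of -0.70 (SE 0.21, unadjusted p = 0.0091, adjusted p = 1 by limma with Benjamini-Hochberg adjustment). Both KH libraries had Y chromosome transcripts and all 3 KO libraries had Xist at 76.2 to 180.4 FPKM, so sex and genotype cannot be told apart here. KH and KO embryos also came from different crosses, so litter and genotype cannot be told apart either. Leaving out WT replicate 1 or WT replicate 2 from the shared fit gave 5 calls each, which were Xist and the Y chromosome genes Ddx3y, Eif2s3y, Kdm5d and Uty. Dropping KH replicate 1 gave 9 calls, dropping KH replicate 2 gave 1, and dropping KO replicate 1 gave 2, which were the pseudogenes Rps13-ps1 and Rps15a-ps8.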

How the data were processed

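Epidermal poly(A) RNA of 9 embryos in 4 genotypes was sequenced as stranded paired-end libraries. The authors mapped reads with TopHat 1.4.1 to mm10 and an Ensembl transcriptome and deposited FPKM values per gene and library from Cuffdiff 2.2.0, as named in the submitters' processing notes. The scaling between libraries is not given in the sources used here. FPKM is a relative scale, so a few abundant genes can shift all others.

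Samples were grouped by label. All 38203 genes were read, and 36340 (95.1%) were placed by GENCODE M21. Genes with a mean of at least 1 FPKM in KH or WT were fitted on log2(FPKM + 1) with limma 3.58.1 in R 4.3.3, using 4 genotype means over all 9 libraries and eBayes with a trend. Calls needed a Benjamini-Hochberg adjusted p below 0.05 and means over 2-fold apart. Named genes were the targeted genes, called genes, the 10 widest gaps in each direction, up to 3 members per list and direction, the 10 genes furthest apart between the KH libraries, and genes the study re-measured. Others named (Krt1, Krt5, Krt10, Rps13, Rps15a, Lor, Flg, Lhx2, Ccnd1, Cd3g, Dsp, Serpinb3b, Serpinb2, Psap and the cell type markers) were added as layer or cell type markers or, for some, after their values were seen. Members and lists were chosen with earlier results of these data known. The p-values measure the spread between embryos, and the number of litters behind them is not given in the sources used here. The fit was tested on simulated data. With 200 of 12442 genes given a log2 change of 1.5 between KH and WT, 50% were recovered beside 5 false calls. With a change of 3, it was 91% beside 7. The draws gave all libraries the same spread for a gene, and only genes with a mean above 3 on the log2 scale were changed. Since the KH pair was wider apart than the WT pair, these rates need not hold for KH against WT. Alternatives varied the pseudocount, filter, scaling, libraries and samples fitted. Values were not read counts, so count tests were not available for them.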

Additional observations from a re-analysis of the deposited data

How the results depend on the processing

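Between KH and WT the count of 1 called gene became 5 without a filter on low values, 5 with genes above a mean of 0.1 FPKM, 3 in a fit of KH and WT alone, 2 in a fit without the DKO libraries, 2 after quantile normalization and 2 with protein-coding genes only, an alternative chosen after seeing the data. Leaving out single libraries gave 1 to 11 calls, and Gadl1 was among the calls every time. Between KH and KO the count of 0 became 1 without a filter and 5 in a fit of these genotypes alone, and was 0 to 9 with single libraries left out. The log2 difference of Esrp1 lay between -2.77 and -1.22 when single libraries were left out. Genes near 0 difference turned sign: leave-one-out values ran from -0.62 to 0.29 for Crnn, from -0.22 to 0.83 for S100a9, from -0.09 to 0.79 for Krt77 and from -0.32 to 0.75 for Sprr2e. In each of these cases the cause was not tested. Replicate numbers only name the embryos. With the replicate number as a block the counts were 1 for KH against WT and 0 for KH against KO, and the deviations of same-numbered KH and WT libraries had a correlation of -0.241 across genes. With the KH numbers crossed, chosen after seeing the data, the count was 1. FPKM holds no read counts, and the depth that the paper reports was not used, so low genes were given no counting error.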
